A study of Mus musculus and Homo sapiens with 22 samples.

Results

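The 9 genes examined here encode core transcription factors of the hepatocyte: Hnf4a, Foxa1, Foxa2, Foxa3, Cebpa, Cebpb, Onecut1, Xbp1 and Creb3l3. They were chosen by name, and every peak whose summit, the base of highest significance, lay in the gene body or within 50 kb of it was assigned to the gene. This gave 153 of 50159 peaks in mouse liver, 51 of 40531 in mouse embryonic fibroblasts (MEFs) and 52 of 14369 in the established human liver cancer line Hep3B, where the human symbols were used. Each symbol matched 1 protein-coding gene in both genomes, so all 9 genes were followed in all 3 lists.

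The peaks came from CUT&RUN, in which an antibody directs a nuclease to cut the DNA around a bound protein in permeabilized nuclei or cells, and the released fragments are sequenced. In liver, the endogenous protein was profiled with an anti-Prox1 antibody in 5 samples of nuclei from untreated wildtype C57BL/6J mice aged 2 to 3 months, beside 5 IgG samples. In MEFs, made from wild-type C57BL/6N embryos at E13.5 and transduced with lentiviral rtTA and tetO-driven FLAG-tagged mouse Prox1, and in Hep3B lines that stably carry a doxycycline-inducible human PROX1 (pLIX-Puro-hsPROX1) under puromycin selection, the overexpressed factor was profiled with an anti-FLAG antibody after 2 days of doxycycline at 2 µg/ml, in 3 samples each beside 3 IgG samples each. The study's methods refer to a peak set of induced hepatocytes. They also describe the transduction for CUT&RUN within the hepatocyte reprogramming protocol, which adds reprogramming factors. The labels of the MEF samples list no reprogramming factor, so whether such factors were present in them is unclear. Liver and the cultures differ in tissue, antibody and origin of PROX1 at once, and MEFs and Hep3B differ in cell type and species, so these cannot be told apart in any comparison between lists.

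Each list pools the samples of its group and no IgG sample has a list of its own. No value below therefore carries a replicate error and no comparison between lists was tested. Peak strength is the −log10 p at the summit, and because the lists are not on a common scale it is given with the place of the peak in its own list, so that the top 1% holds the most significant peaks. The lists carry no read counts, so their depth is unknown, and no expression values against which the labelled cell types could be checked. The lowest peak area, the area under the significance curve, was higher in liver than in both cultures, and liver peaks reached far higher significance (median −log10 p 12.2) than those of MEFs (5.96) or Hep3B (6.44).

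PROX1 is a homeodomain transcription factor that hepatocytes and lymphatic endothelial cells make, and it is known to act as a corepressor that can bind HNF4A and other nuclear receptors. Hepatocyte identity rests on a small circuit of factors that bind their own and one another's regulatory elements: HNF4A, a nuclear receptor, the FOXA forkhead factors that can open compacted chromatin, the bZIP factors C/EBPα and C/EBPβ, and ONECUT1, also called HNF6. XBP1 and CREB3L3 are bZIP factors tied to the endoplasmic reticulum, which act in the unfolded protein response and in lipid and acute-phase gene control.

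The sequence at the most significant liver summit nearest to the gene is shown first for 8 of the 9 genes, since these windows carry the strongest signal attributed to the members. Each line gives 50 bases on either side of the summit, from the mm10 genome, on the strand of the gene, with the distance of the summit from the nearest transcription start site (TSS) of the gene. Negative distances are upstream. Capitals mark the letters that were searched for on either strand. They include the PROX1 half-site AAGACG. The other PROX1 half-site is AAGGCG, which reads CGCCTT when it lies on the opposite strand. AGGTCA is the half-site of many nuclear receptors. CAAAGT is part of the element that HNF4 factors bind. TGTTTAC is the core of forkhead sites. TTGCGCAA is the palindrome of C/EBP factors, and ATCGAT is a form of the core of ONECUT sites. TGACGTCA is the cAMP response element, and GACGTG is found in sites of XBP1.
Hnf4a intron, 9.30 kb, chr2:163559334-163559434, strand +: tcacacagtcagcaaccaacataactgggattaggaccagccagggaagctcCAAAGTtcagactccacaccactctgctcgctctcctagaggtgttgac
Foxa1, 6.62 kb, chr12:57539454-57539554, strand -: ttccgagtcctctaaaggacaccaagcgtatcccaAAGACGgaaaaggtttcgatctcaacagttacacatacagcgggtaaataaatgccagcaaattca
Foxa2 promoter, −229 bp, chr2:148047148-148047248, strand -: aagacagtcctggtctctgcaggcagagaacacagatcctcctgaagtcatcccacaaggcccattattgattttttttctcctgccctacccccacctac
Foxa3 intron, 7.22 kb, chr7:19016270-19016370, strand -: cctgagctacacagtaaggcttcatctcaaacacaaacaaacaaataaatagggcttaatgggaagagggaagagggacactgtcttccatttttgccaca
Cebpa, 27.2 kb, chr7:35146493-35146593, strand +: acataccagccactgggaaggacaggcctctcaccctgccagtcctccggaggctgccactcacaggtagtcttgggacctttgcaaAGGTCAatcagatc
Onecut1 intron, 3.66 kb, chr9:74865533-74865633, strand +: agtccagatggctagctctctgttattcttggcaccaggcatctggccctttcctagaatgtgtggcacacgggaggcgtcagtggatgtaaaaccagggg
Xbp1, −21.2 kb, chr11:5499389-5499489, strand +: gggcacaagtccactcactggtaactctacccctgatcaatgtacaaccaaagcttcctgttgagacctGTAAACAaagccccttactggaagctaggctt
Creb3l3 intron, 4.49 kb, chr10:81094337-81094437, strand -: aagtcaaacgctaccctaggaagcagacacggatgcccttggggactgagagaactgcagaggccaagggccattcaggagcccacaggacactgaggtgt
Of these 8 windows, the one at Hnf4a held CAAAGT, that at Foxa1 a PROX1 half-site, that at Cebpa AGGTCA and that at Xbp1 the forkhead core. The windows at Foxa2, Foxa3, Onecut1 and Creb3l3 held none of the letters.

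Every one of the 9 genes had a summit in its window in every list. Over all protein-coding genes, 69.1% had such a summit in liver, as did 81.2% in MEFs and 71.8% in Hep3B. The number of summits set the lists apart more than their presence did. The median was 18 summits per gene in liver against 3 over all 21853 protein-coding genes, 7 against 4 in MEFs and 6 against 1 over 19689 genes in Hep3B. Per 100 kb of window, which removes the effect of gene length, the medians were 15.2 against 1.85 in liver, 4.82 against 2.73 in MEFs and 5.63 against 0.894 in Hep3B. The peaks covered 14.2% of the window in liver at the median member, against 0.880% at the median gene. These numbers depend on the length of the lists. With the 14361 most significant peaks of each list the members had 45 summits in liver, 19 in MEFs and 52 in Hep3B, so that liver no longer had the most, and the median per member was 5 in liver against 0 over all genes, 2 against 1 in MEFs and 6 against 1 in Hep3B.

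**Figure D1:**
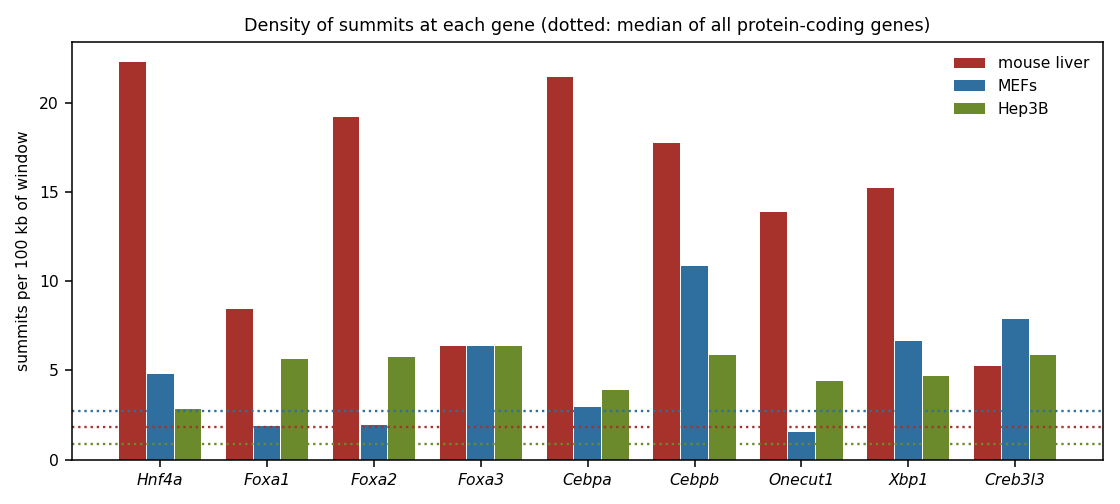
Summits per 100 kb of the window (gene body and 50 kb on either side) for each gene, with 1 bar for each pooled peak list and no error bars because each list is 1 pooled call. In liver the values ran from 5.24 at Creb3l3 to 22.3 at Hnf4a, and the dotted lines give the median of all protein-coding genes in each list.

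Numbers and strength went different ways. Of the 153 liver summits at the members, 17 (11.1%) were among the top 10% of the list, and their median −log10 p was 12.1 against 12.2 for the whole list. In Hep3B 5 of 52 (9.62%) were that strong, and in MEFs 10 of 51 (19.6%). The member peaks in liver were thus numerous but of ordinary significance for that list. They were more often broad: 14 of them (9.15%) spanned 2 kb or more, against 2.98% of all liver peaks. MEFs had 1 such member peak (1.96%, against 2.45% of the list) and Hep3B 1 (1.92%, against 0.981%). At least 1 summit of the top 10% lay in the window of 5 members in liver, where 23.3% of all genes had one, of 4 in MEFs (39.6% of all genes) and of 3 in Hep3B (19.4% of all genes). Counting only peaks nearest to the member, liver kept 5 such members, MEFs 1 (Xbp1) and Hep3B 1 (CEBPA). A window with many summits has more chances to hold a strong one.

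**Figure D2:**
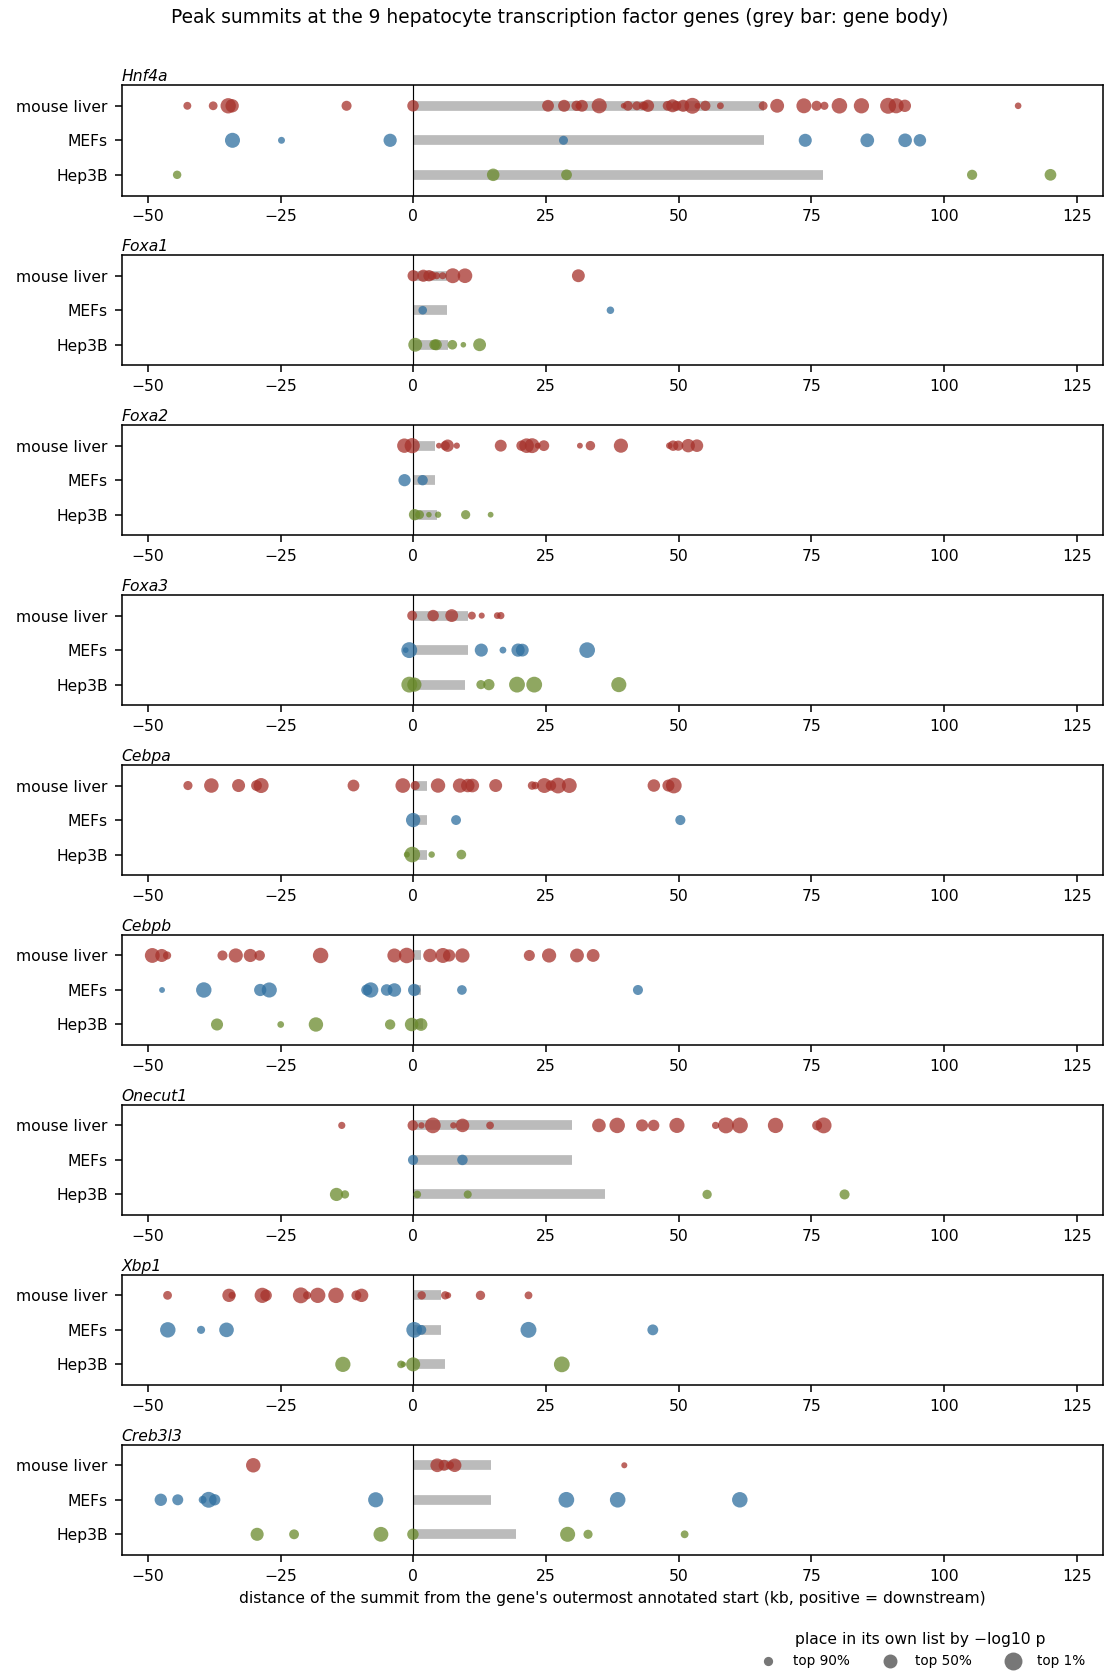
Position of each summit relative to the outermost annotated start of its gene (kb, positive downstream), with 1 row per list, the gene body in grey and larger points for peaks higher in their own list. Liver summits tile the Hnf4a body and the flanks of Foxa2, Cebpa, Cebpb, Onecut1 and Xbp1, and the MEF and Hep3B rows hold fewer points at most genes.

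At promoters, taken as 1000 bp either side of a TSS, 7 members had a summit in liver, 7 in MEFs and 8 in Hep3B. Of all protein-coding genes, the shares with such a summit were 26.7% in liver, 55.4% in MEFs and 44.4% in Hep3B. Foxa1, Foxa2, Foxa3, Cebpa, Onecut1 and Xbp1, 6 of the 9, had a promoter summit in all 3 lists, which 21.9% of 15707 genes with a symbol in both genomes had. With the same 14361 top peaks in each list, 1 member (Foxa2) kept a promoter summit in liver, where 4.99% of all genes had one, 3 in MEFs (33.9%) and 8 in Hep3B (44.4%). The other 3 genes differed in the full lists. Hnf4a had promoter summits in liver alone, Cebpb in MEFs and Hep3B, and Creb3l3 in Hep3B alone.

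Hnf4a, the nuclear receptor that heads the circuit, lies on chromosome 2, 163506808 to 163572910 in mm10, plus strand (ENSMUSG00000017950.16). It had 37 summits in liver, 21 of them in the gene body, and 0.343% of all genes had as many. In MEFs it had 8 and in Hep3B 5. It is transcribed from an upstream start and from starts about 40 kb further in, and the inner starts are the ones used in adult liver. A liver peak of 295 bp sat on the upstream start with its summit at −72 bp and a −log10 p of 11.7. Around the inner starts there were 5 promoter summits, at −776, 46, −3, 301 and 931 bp from the nearest TSS, with −log10 p between 6.78 and 12.5. None of these 6 was in the upper 40% of the list. Stronger liver peaks lay away from the starts. A peak of 2961 bp between the starts had its summit at −5363 bp and a −log10 p of 17.4, a peak of 1330 bp in an intron reached 22.1 at 9.30 kb (rank 987, top 1.97%), and the strongest in the window, 4237 bp wide with 23.7 (rank 468, top 0.933%), lay 46.2 kb downstream, where Ttpal is the gene with the nearer TSS. Of the 37 summits, 23 were nearest to Hnf4a, and the others were nearest to Fitm2, R3hdml or Ttpal.

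In MEFs only 2 of the 8 summits were nearest to Hnf4a, at −4387 and −12.1 kb, and the strongest in the window was the Fitm2 promoter peak (−log10 p 7.78, top 13.7%). At HNF4A in Hep3B (chromosome 20, 44355699 to 44432845, hg38) the 2 nearest summits lay at 14.9 kb, with 6.65 (top 44.0%), and at −16.7 kb, with 6.08 (top 61.8%), both between the 2 groups of starts. Neither culture had a summit within 1000 bp of any Hnf4a TSS.

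Foxa1, Foxa2 and Foxa3 encode the forkhead factors that prime liver genes in the embryo. Foxa1 (chromosome 12, 57540628 to 57546916, minus strand) had 9 summits in liver, 2 in MEFs and 6 in Hep3B. Its liver summits clustered over and just behind the gene, with the strongest at 6.62 kb (16.8, top 15.1%) and the next at 8.92 kb, in a peak of 2284 bp. The liver promoter summit at −836 bp had a −log10 p of 11.6. In MEFs a peak of 1309 bp over the start had its summit at 958 bp, with 4.87 (top 80.6%). At FOXA1 in Hep3B a peak of 2750 bp, the only one of 2 kb or more in that list at any member, covered the start with its summit at −468 bp and 7.23 (top 28.4%), where the TSS of TTC6 is nearer. Further summits lay at 3.19, 3.49, 6.53, 8.60 and 11.7 kb. No alignment between the species was made here or at any other gene.

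Foxa2 (chromosome 2, 148042877 to 148046969, minus strand) had 20 summits in liver, all nearest to Foxa2, 2 in MEFs and 6 in Hep3B. Its promoter peak in liver was also its strongest, 2843 bp wide with the summit at −229 bp and 17.7 (top 11.4%). No other member had its strongest liver summit within 1000 bp of its own TSS. The remaining liver summits ran from −1711 bp to 52.4 kb. The 2 MEF peaks both overlapped liver peaks, with summits at 714 bp (5.40) and −1672 bp (6.09, top 47.1%). At FOXA2 in Hep3B 2 promoter summits lay at 216 bp (6.25, top 56.3%) and 276 bp (5.53) from separate starts.

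Foxa3 (chromosome 7, 19013284 to 19023538, minus strand) had 7 summits in each list, and the values behind these equal numbers differed. In liver its strongest summit, in an intron at 7.22 kb, had 13.1 (top 40.7%) and its promoter summit at −234 bp 10.5. In MEFs and Hep3B the strongest summits were at −782 bp (9.49, rank 858, top 2.12%) and −773 bp (8.92, rank 334, top 2.32%). Both were nearer to the TSS of the neighbour Sympk or SYMPK than to that of Foxa3, and no MEF summit in the window was nearest to Foxa3. At FOXA3 in Hep3B a separate peak at −160 bp had 7.46 (top 24.0%). The window holds starts of 5 other protein-coding genes in both species.

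Cebpa and Cebpb encode bZIP factors, of which the first keeps hepatocytes differentiated and quiescent and the second responds to the acute phase. Cebpa (chromosome 7, 35119293 to 35121928, plus strand) is a gene of 2636 bp, and its liver peaks lay around it. Of 22 liver summits 1 was in the gene body, and peaks covered 24.4% of the window, the highest share of the 9. The liver peaks of 2 kb or more at Cebpa numbered 4, including one of 3252 bp that reached across the start with its summit at −2002 bp (16.2). The strongest, at 27.2 kb, had 20.9 (rank 1708, top 3.41%), and the summit at 324 bp, in the gene body, had 10.0 (top 76.9%). In MEFs a peak of 1451 bp over the start had its summit at −51 bp with 7.20 (top 22.7%). At CEBPA in Hep3B the summit at −216 bp had 8.70 (rank 686, top 4.77%), which was the strongest promoter summit nearest to its own member in that list. By distance alone, each list had a summit at a similar place downstream, at 8.77 kb in liver, 8.02 kb in MEFs and 9.04 kb in Hep3B. The liver and MEF summits were 746 bp apart in overlapping peaks, and the human position was not aligned to them.

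Cebpb (chromosome 2, 167688915 to 167690418, plus strand) had 18 summits in liver, 11 in MEFs, the most of any member there, and 6 in Hep3B. It had no promoter summit in liver because the summit of its strongest peak fell at −1270 bp, just outside the limit of 1000 bp. That peak spanned 2280 bp and had 19.4 (rank 3232, top 6.44%). In MEFs a peak of 2306 bp covered the start and most of the gene, with its summit at 149 bp and 6.13 (top 45.9%), and at CEBPB in Hep3B the summit lay at −339 bp with 7.05 (top 32.8%), while the strongest summit of that window lay at −18.4 kb with 7.56 (top 22.0%). The summits at −3589 bp in liver and −3587 bp in MEFs were 2 bp apart, the closest pair at any member, and Hep3B had one at −4390 bp. The strongest MEF summit in the window, at −39.5 kb (8.28, top 8.47%), was nearest to Gm20431.

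Onecut1 (chromosome 9, 74861921 to 74891781, plus strand), a regulator of liver and bile duct development, had 18 summits in liver, 2 in MEFs and 6 in Hep3B. A liver peak of 4961 bp in its intron, the widest at any member, had its summit at 3.66 kb and 20.2 (rank 2287, top 4.56%). The strongest in the window, with 23.1 (rank 641, top 1.28%), lay at 58.9 kb and was nearer to Fam214a, as were 6 further liver summits. Both MEF summits had a liver counterpart: at the promoter the summits were at −118 bp in liver (10.9) and −69 bp in MEFs (5.34), and in the intron at 9.26 kb in liver (14.1) and 9.24 kb in MEFs (5.43), 16 bp apart. At ONECUT1 in Hep3B summits lay at −16 bp (5.21) and 9.49 kb (5.31), and the strongest of that window lay at −15.2 kb (6.93, top 36.2%). By distance alone, all 3 lists had both a promoter summit and one 9.24 to 9.49 kb inside the gene. The human positions were not aligned to the mouse ones. None of the MEF or Hep3B summits at these positions was among the top 50% of its list.

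Xbp1 (chromosome 11, 5520659 to 5525893, plus strand), the effector of the IRE1 branch of the unfolded protein response, had 16 summits in liver, 7 in MEFs and 5 in Hep3B. Upstream of the gene lay the strongest liver signal. Its 3 summits of the top 10% were at −21.2 kb (22.1, rank 1012), −14.6 kb (18.7) and −18.0 kb (18.2), and the promoter summit, at 290 bp from the nearest start, had 9.61 (top 82.0%). In MEFs the promoter peak of 1746 bp had its summit at 148 bp with 8.98 (rank 1627, top 4.01%), the strongest MEF promoter summit nearest to its own member, and another followed at 235 bp from an inner start (5.21). At XBP1 in Hep3B the promoter summit at −51 bp had 7.35 (top 26.0%). The strongest summit of the window belonged by distance to Ccdc117 in both cultures, with 9.68 in MEFs (rank 653) and 8.78 in Hep3B (rank 529). At the same Ccdc117 start the liver summit had 9.24 (top 86.4%).

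Creb3l3 (chromosome 10, 81084324 to 81098874, minus strand) encodes a membrane-bound factor of the liver and small intestine that controls lipid genes. It had 6 summits in liver, the fewest of the 9, and 9 in MEFs and 7 in Hep3B. The 4 liver summits in the gene lay at 4.49, 5.78, 6.89 and 7.78 kb, with −log10 p between 9.34 and 14.3, and none was at its promoter. The strongest liver summit in the window, at −30.2 kb with 15.7 (top 21.1%), lay at the Map2k2 promoter, and the remaining one, with 7.88, at that of Sgta. None of the 9 MEF summits was nearest to Creb3l3 or in its body, and all lay at or near Slc39a3, Sgta, Thop1, Map2k2 or Zbtb7a, the strongest at a Zbtb7a start (9.43, rank 926, top 2.28%). At CREB3L3 in Hep3B a promoter summit lay at −93 bp (6.29, top 55.2%) and another at −6123 bp (7.94, top 16.0%). The strongest in that window, with 8.10 (top 13.6%), lay at an ANKRD24 promoter.

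**Figure D3:**
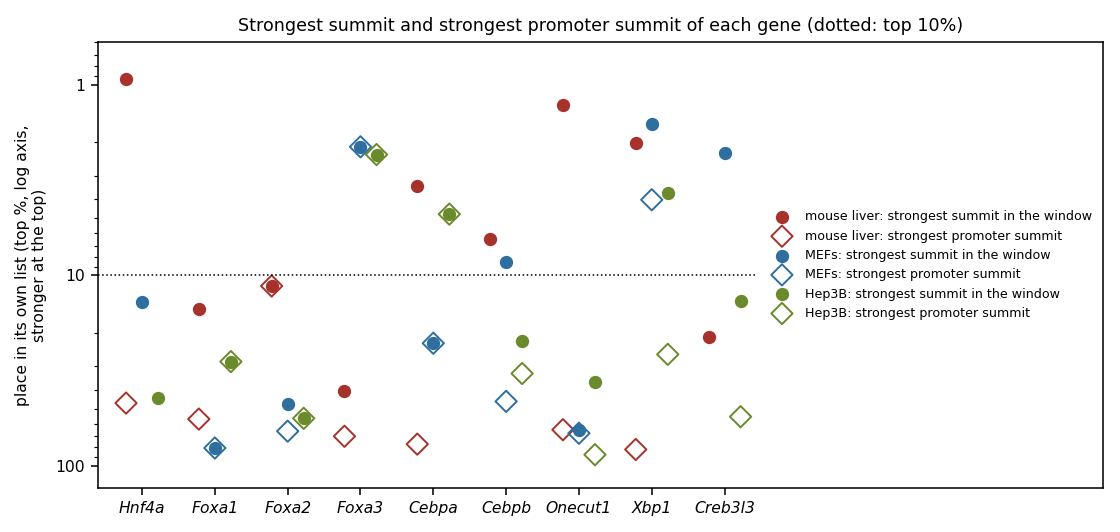
Place in its own list (top percent, log axis, stronger at the top) of the strongest summit in the window of each gene (filled) and of its strongest promoter summit (open diamonds), by list, with the top 10% as a dotted line. In liver the filled point lies above the diamond at Hnf4a, Foxa1, Foxa3, Cebpa, Onecut1 and Xbp1 and coincides with it at Foxa2. Missing diamonds are genes without a promoter summit.

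The strongest liver summit in the window thus lay more than 1000 bp from the member's own TSSs at every gene but Foxa2. At Cebpb this rests on the limit, since the summit was at −1270 bp and its peak reached into the promoter. Of the 153 liver summits 17 (11.1%) lay within 1000 bp of the TSS of any protein-coding gene, against 14.5% of the whole list. Another 64 (41.8%) were intronic, against 51.3%, and 62 (40.5%) intergenic, against 28.4%. Introns here are those of any annotated gene, coding or not, and need not belong to a member. Only 39 of the 153 lay in the body of a member, and Foxa2 and Cebpb had 0 there. In MEFs 22 of 51 (43.1%) were at such promoters, against 32.0% of the list, and in Hep3B 20 of 52 (38.5%), against 58.3%. Promoters of neighbouring genes were part of this. Counting only summits whose nearest protein-coding TSS was that of the member left 109 in liver, 20 in MEFs and 32 in Hep3B.

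Liver and MEF peaks at the members were compared directly because both lists are in mm10. Of the 153 liver peaks 27 overlapped a MEF peak by at least 1 bp, or 17.6% (95% Wilson interval 12.4 to 24.5%, counting error only), and 18.9% of all liver peaks did. Of the 51 MEF peaks 26 overlapped a liver peak, or 51.0% (37.7 to 64.1%), and 21.4% of all MEF peaks did. With the 14361 most significant peaks of each list 4 of 19 MEF member peaks were shared (21.1%), against 5.01% of that list, and with summits required to lie within 100 bp 12 of 51 (23.5%), against 8.12%. The 2 lists differ in size at these genes, so the same overlap is a small share of one and a large share of the other. Liver peaks also covered 14.2% of the window at the median member, against 0.880% at the median gene. The shares over whole lists are not matched for this, and its effect on the MEF shares was not tested. Away from promoters 16 of 29 MEF peaks (55.2%) had a liver counterpart, against 14.7% of all such MEF peaks, and at promoters 10 of 22 (45.5%) against 35.7%. Of the liver peaks, 19 of 136 away from promoters (14.0%) had a MEF counterpart, against 10.7% of all such liver peaks. At promoters it was 8 of 17 (47.1%), below the 67.6% of all liver promoter peaks. The summits of the 28 overlapping pairs were 120 bp apart at the median, from 2 to 1964 bp, and 12 pairs were within 100 bp. By gene, the shared MEF peaks numbered 5 of 8 at Hnf4a, 5 of 11 at Cebpb, 5 of 7 at Xbp1, 3 of 3 at Cebpa, 3 of 7 at Foxa3, 2 of 2 at Foxa2 and Onecut1, 1 of 2 at Foxa1 and 0 of 9 at Creb3l3.

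The PROX1 half-sites were read at the summits that fell on a promoter or, at Onecut1, on the shared intronic site. These windows are shown because they pair the factor's own letters with a peak close to a member's start or present in more than 1 list. They were picked for holding a half-site and are not typical of member promoters. In liver, the promoter summits of Hnf4a, Foxa1, Foxa2, Onecut1 and Xbp1 held neither half-site. Genome and strand are as above, with hg38 for Hep3B.
Onecut1 intron, liver, 9.26 kb, chr9:74871126-74871226, strand +: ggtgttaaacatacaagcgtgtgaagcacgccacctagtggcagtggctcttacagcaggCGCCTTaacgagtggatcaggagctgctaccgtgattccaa
Foxa3 promoter, liver, −234 bp, chr7:19023722-19023822, strand -: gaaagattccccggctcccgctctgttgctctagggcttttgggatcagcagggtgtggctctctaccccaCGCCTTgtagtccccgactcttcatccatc
Foxa3 promoter, MEFs, −782 bp, chr7:19024270-19024370, strand -: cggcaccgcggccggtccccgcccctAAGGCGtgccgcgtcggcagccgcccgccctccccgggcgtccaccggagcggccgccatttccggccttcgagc
Cebpa gene body, liver, 324 bp, chr7:35119577-35119677, strand +: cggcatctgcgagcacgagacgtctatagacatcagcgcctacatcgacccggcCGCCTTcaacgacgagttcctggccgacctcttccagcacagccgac
Cebpa promoter, MEFs, −51 bp, chr7:35119192-35119292, strand +: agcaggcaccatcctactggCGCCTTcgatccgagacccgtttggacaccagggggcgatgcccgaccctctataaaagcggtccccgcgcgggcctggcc
CEBPB promoter, Hep3B (hg38), −339 bp, chr20:50190441-50190541, strand +: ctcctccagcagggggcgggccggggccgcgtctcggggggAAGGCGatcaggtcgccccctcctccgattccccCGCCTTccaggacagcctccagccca
The Onecut1 window held the half-site in liver and MEFs alike, since the summits were 16 bp apart, and the Hep3B summit at 9.49 kb held neither half-site. At Foxa3 and at Cebpa the liver and MEF summits lay at different bases, and each window held its own copy. The MEF summit at Foxa3 was nearer to the TSS of Sympk than to that of Foxa3. The Hep3B window at CEBPB held 2 copies, 1 on either strand, and the MEF summit at 149 bp of Cebpb also held one.

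Across all member summits the letters were infrequent. AAGGCG was within 50 bp of 8 of 153 liver summits (5.23%, 95% Wilson interval 2.67 to 9.98%), against 2.13% of all liver summits, of 4 of 51 in MEFs (7.84%, 3.09 to 18.5%) against 3.04%, and of 5 of 52 in Hep3B (9.62%, 4.18 to 20.6%) against 5.95%. AAGACG was at 4 liver summits (2.61%, against 1.43%) and at 0 in MEFs and Hep3B, which allows a share of up to 5.88% and 5.77%. In the full PROX1 element both half-sites face each other and share their CG bases. AGGTCA was the most frequent of the letters at liver summits, at 21 (13.7%, 9.16 to 20.1%), against 16.5% of the list, followed by CAAAGT at 14 (9.15%, against 12.9%) and TGTTTAC at 6 (3.92%, against 3.56%). GACGTG was at 1 summit in each list. ATCGAT, the C/EBP palindrome and the cAMP response element were at 0 of 153, which allows a share of up to 1.96%. Their shares of the list were 1.09%, 0.110% and 0.124%. Other forms of the ONECUT core were not searched for. Base composition differed a little, with a median GC content of 52.5% in the 101 bases around member summits and 48.5% over the liver list.

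Other transcription factor genes were counted in the same way. In liver, 24 further liver transcription factors had a median of 15 summits per gene, close to the 18 of the members, and 21 of them had a promoter summit, all but Atf5, Nr2f1 and Nr2f6. The 10 paralogs of the members had a median of 3, equal to that of all genes, and 4 had a promoter summit (Cebpd, Cebpg, Creb3 and Creb3l2). The window of Cebpg overlaps that of Cebpa, and its strongest liver peak (top 14.1%) is 1 of the 22 counted at Cebpa. Hnf4g, the paralog of Hnf4a, had no summit in its window in any of the 3 lists. Onecut2 had the most liver summits of the paralogs, 17. The 17 fibroblast transcription factors had a median of 2, and 2 had a promoter summit (Ebf2 and Snai2). Over all protein-coding genes, 26.7% had a promoter summit in liver. In MEFs the medians lay close together, at 7 for the members, 7 for other liver factors, 5.5 for the paralogs and 7 for fibroblast factors. There 13 of the 17 fibroblast factors had a promoter summit, as did 7 of the 9 members, 17 of the 24 other liver factors and 6 of the 10 paralogs. The share over all genes in MEFs was 55.4%. In Hep3B the medians were 6, 3, 3 and 1. The members were not set apart from the other liver factors by these counts in liver.

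By the place of the strongest summit in the window, Hnf4a stood at the top 0.933% in liver, 13.7% in MEFs and 44.0% in Hep3B. Of the other liver factors, the closest over these 3 values was Klf15, a Krüppel-like factor of hepatic metabolism, at 0.855%, 16.5% and 41.6%, with absolute differences that summed to 5.26 percentage points. Nfia followed at 17.6 points and Rxra, the partner of many nuclear receptors, at 18.6 points.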

How the data were processed

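CUT&RUN was performed on 22 samples in 6 groups, and the analysis started from 3 deposited peak lists, 1 for each antibody group. Per the labels and the study's methods, the authors aligned reads to mm10 or hg38 with Bowtie2 (2.4.2) and called consensus peaks over replicates with Genrich (0.6.1). The study describes the sites as called relative to IgG, but the stated command names no control library, so how the IgG samples entered is not given in the sources used here. The deposited columns used were signal (the peak's area), −log10 of the p- and q-value at the summit, and the summit's offset (another unit, in bases). No test was run.

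Summits were assigned to GENCODE genes (mouse release 21, human release 44; protein-coding, assembled chromosomes) with Python 3.11.15, pandas 2.3.3 and pysam 0.24.0. The Wilson intervals and the limit for a count of 0 (3 counts) cover counting error only. Sequences came from the GRCm38.p6 (mm10) and hg38 assemblies, and windows overlapping an annotated UTR are not shown. The window at 1 gene is not reported here. Window assignment, ranking and overlap were checked on planted peaks. The members and the comparison lists were chosen with earlier results of these data known. For each member and list, the strongest summit and the promoter summits were named by rule. Other summits, among them those paired by position between lists, were named after their values were seen. Of the comparison lists, genes singled out by small counts and the 3 liver factors most like Hnf4a were named by rule. Hnf4g and Onecut2 were named after their values were seen. Alternatives covered q and area thresholds, equal list sizes, windows, TSS sets and overlap rules.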

Additional observations from a re-analysis of the deposited data

How the results depend on the processing

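Of 112 recomputed counts and shares, 86 stayed within 1.5 times the reported count or percentile, or for shares within the Wilson interval, and the cause of the other changes was not tested beyond what each alternative removes. Liver had the most member summits of the 3 lists under every alternative except lists of equal size. With the 14361 most significant peaks of each list, the members had 45 summits in liver and 19 in MEFs (52 in Hep3B), 1 member had a promoter summit in liver and 3 in MEFs, 3 had a strong summit in liver, and the shared shares fell to 8.89% of liver and 21.1% of MEF peaks. With the area threshold of liver applied to all lists, 25 summits were left in MEFs and 23 in Hep3B, and 8.50% of liver peaks were shared. With a window of 25 kb MEFs had 31 summits, and with 100 kb liver had 234 and MEFs 100. Counting only peaks nearest to the member gave 20 summits and 1 member with a strong summit in MEFs, 32 and 1 in Hep3B, and a shared share of 70.0% of MEF peaks. A promoter limit of 500 bp left 4 members in MEFs. With strong taken as the top 25%, 8 members had such a summit in liver and 5 in Hep3B. Requiring summits within 100 bp lowered the shared shares to 7.84% of liver and 23.5% of MEF peaks. Ranking by area moved the median place of the strongest member summit from the top 6.44% to 1.72% in liver, from 13.7% to 8.28% in MEFs and from 22.0% to 13.3% in Hep3B. Merging peaks under 500 bp apart, chosen after seeing the data, gave 105, 46 and 47 summits in liver, MEFs and Hep3B. Of 54 motif shares with narrower or wider windows, 7 left their interval. No paired analysis was possible because each list pools its group, and for the same reason no replicate could be left out.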
